A study of Mus musculus with 8 samples.

Results

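The change in the CLA effect between day 14 and day 5 was followed in epididymal adipose tissue, the fat pad beside the epididymis, of polygenic obese mice. Conjugated linoleic acid (CLA) is a mixture of isomers of linoleic acid (LA), and LA-fed mice were the controls. All 8 arrays of the series were used: 4 of day 14 of the trial and 4 of day 5, with each array pairing RNA of a CLA-fed pool with RNA of an LA-fed pool, each pool made of 4 or 5 mice. CLA RNA was labelled with Cy5 and LA RNA with Cy3 on arrays 1 and 2 at either day, and the dyes were exchanged on arrays 3 and 4. The sources used here do not give the mouse line, the doses, the ages or whether arrays share pools, so the p-values reflect spread among arrays that may be partly technical. In whole tissue, fewer cells of a type and less RNA per cell cannot be told apart.

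White fat stores triglyceride, whereas brown and beige adipocytes burn fatty acids and release the energy as heat through the uncoupling protein of their mitochondria. Dietary CLA is known to reduce fat mass in mice, and loss of white adipocytes, entry of macrophages and remodelling of the matrix have been described in such fat. The epididymal pad lies against the epididymis and testis, whose genes can enter the sample at dissection.

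Each gene had a log2 ratio per array, read as CLA over LA. This direction is likely and not stated: it rests on CLA being the treatment, and the sign of Ucp1 at day 14 was known when it was taken. Were the values LA over CLA, every sign below would be reversed. The values of arrays 3 and 4 were read as already turned by the authors, and the results depend on this. In the fits below with arrays 3 and 4 turned, a day difference measures how arrays 1 and 2 disagree with arrays 3 and 4. A difference alike in both pairs of arrays then shrinks by construction. Probes were taken by size alone, blind to sign, with at least 2 log2 units on all 8 arrays. There were 467 among 4175 probes that carry no single symbol and 7 among 18218 with 1 symbol. In 466 of the 467, arrays 1 and 2 had the opposite sign to arrays 3 and 4 on both days, and in 0 was the sign the same on all 8 arrays. A spot lit by 1 dye alone shows this pattern once the sign of the exchanged arrays has been turned, and so would a diet effect if it had not been turned. The reading rests on such spots being mostly without a gene symbol, and it is likely, not shown. A log10 scale was assumed for the deposited values, which were multiplied by 3.32, and were they on a log2 scale to begin with, all differences and standard errors (SE) here would be too large by that factor.

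The day difference was tested with limma on all 8 arrays together, fitting 1 mean per day and a dye term. Of 16504 genes 0 were called (0%), and of 22393 probes 0 (0%), the threshold being a p under 0.05 after Benjamini-Hochberg adjustment. No gene had an adjusted p below 0.892 and no probe one below 0.914. At an unadjusted p under 0.05 there were 700 genes (4.24%), of which 463 (2.81%) were higher at day 14 and 237 (1.44%) lower, and 931 probes (4.16%). With no day difference in any gene, a share of about 0.05 would pass this threshold, and both shares lay below it. The genes, lists and classes below therefore describe sizes and array values, and no single difference passed the correction in this fit. All named genes had an adjusted p of 0.892 or more. The median difference over all genes was 0.00 and the median SE of a difference was 0.17 log2 units.

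The day 5 arrays were less alike than the day 14 arrays. The residual spread was 0.219, 0.198, 0.24 and 0.223 log2 units on day 14 arrays 1 to 4, against 0.289, 0.235, 0.56 and 0.447 on day 5 arrays 1 to 4. Of 30 epididymis and testis markers, 22 were measured, and their median ratio was −0.11, −0.14, −0.01 and 0.15 on the day 14 arrays, against 1.17, −0.36, 0.72 and −0.26 on the day 5 arrays. Day 5 array 1 was high for epididymal genes such as Adam7, a sperm-associated surface protein (2.63), and the lipocalin Lcn9 (2.62). Day 5 array 3 was high for genes of maturing sperm, such as the protamine Prm1 (6.78) and the sperm lactate dehydrogenase Ldhc (5.89). Ldhc lay between 0.00 and 0.16 on the day 14 arrays. The lipocalin Lcn5, another epididymal gene, differed by −2.36 ± 1.15 (SE) between the days. The part of this tissue in the results below was not tested. Day 5 arrays 1 and 3 are named for several results that turn on them, but not for every such result.

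Ucp1, the uncoupling protein of brown and beige fat, had the largest day difference of all 16504 genes. Its log2 ratio was 3.21, 3.66, 3.71 and 3.47 on the day 14 arrays, against 1.95, −0.31, 1.97 and −0.40 on the day 5 arrays. The days did not overlap, and the day 5 arrays split in 2, with arrays 1 and 3 well above 0 and arrays 2 and 4 just below it. The fitted difference was 2.71 ± 0.61 (SE, n = 4 arrays a day; limma, unadjusted p = 0.0024), a 6.55-fold larger ratio at day 14. It was 2.62 within arrays 1 and 2 and 2.81 within arrays 3 and 4. Without day 5 arrays 1 and 3, a setting added after seeing the data, limma called Ucp1 alone of all genes (3.87, adjusted p = 0.0022). Those 2 arrays hold both high day 5 values of Ucp1 as well as the epididymal and testicular markers, so leaving them out removes arrays the way the outcome does, and the call is not read as a result. With arrays 3 and 4 turned, the Ucp1 difference was −0.09.

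The other thermogenic genes differed less. Cox8b, a cytochrome oxidase subunit of brown fat and muscle, stood at 0.62, 0.59, 1.11 and 1.15 on the day 14 arrays, against −0.68, 0.27, −0.11 and −0.47 on the day 5 arrays. All day 14 values lay above all day 5 values, and the difference was 1.11 ± 0.23 (limma, unadjusted p = 0.0016). Cox7a1, another oxidase subunit of such tissue, stood at 0.23, 0.25, 0.92 and 1.02 on the day 14 arrays, against 0.11, 0.00, −0.25 and −0.16 on the day 5 arrays, a difference of 0.68 ± 0.21. Elovl3, a fatty acid elongase of brown fat, stood at 0.91, 0.60, 0.64 and 1.12, against 0.36, 0.57, −0.21 and 0.19, a difference of 0.59 ± 0.20. For both the days did not overlap, though the Elovl3 gap was narrow. Of 18 listed genes of brown and beige fat, 16 were measured. At an unadjusted p under 0.05, 5 were higher (31.2%, against 2.81% of all genes) and 0 lower. Ppargc1a, a coactivator of mitochondrial genes, was the fifth (0.35 ± 0.13). The list median difference was 0.17. Not every gene of this kind differed. The day difference was −0.06 ± 0.22 for the lipid droplet protein Cidea, 0.13 ± 0.16 for the deiodinase Dio2 and 0.16 ± 0.13 for the brown fat regulator Prdm16. With arrays 3 and 4 turned, 0 members had an unadjusted p under 0.05 and the list median was −0.03.

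The promoters of Ucp1 and Cox8b, which had the largest differences of the thermogenic list, are given as 250 bases upstream of the start of transcription (RefSeq, GRCm38.p6), read along the gene's strand. Capitals mark AGGTCA, a half-site for nuclear receptors.
Ucp1, chr8:83290098-83290347 (+): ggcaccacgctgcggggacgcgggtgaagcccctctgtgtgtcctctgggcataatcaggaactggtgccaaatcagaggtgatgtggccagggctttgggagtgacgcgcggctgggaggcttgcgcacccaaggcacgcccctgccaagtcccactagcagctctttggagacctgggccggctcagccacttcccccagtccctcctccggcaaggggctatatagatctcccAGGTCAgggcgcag
Cox8b, chr7:140900447-140900696 (−): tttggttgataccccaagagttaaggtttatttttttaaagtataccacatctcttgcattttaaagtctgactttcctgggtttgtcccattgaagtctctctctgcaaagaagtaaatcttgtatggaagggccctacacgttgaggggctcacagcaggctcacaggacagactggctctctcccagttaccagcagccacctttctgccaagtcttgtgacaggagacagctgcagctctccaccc
Both strands were searched for AGGTCA and for TGACGTCA, the cyclic AMP response element, neither of which contains the other. The Ucp1 window held AGGTCA once, 14 bases before the start, and the Cox8b window held neither. AGGTCA was found in 14% of 32851 promoter windows of this length and TGACGTCA in 1.55%. A match is a description of letters and not of binding.

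**Figure D1:**
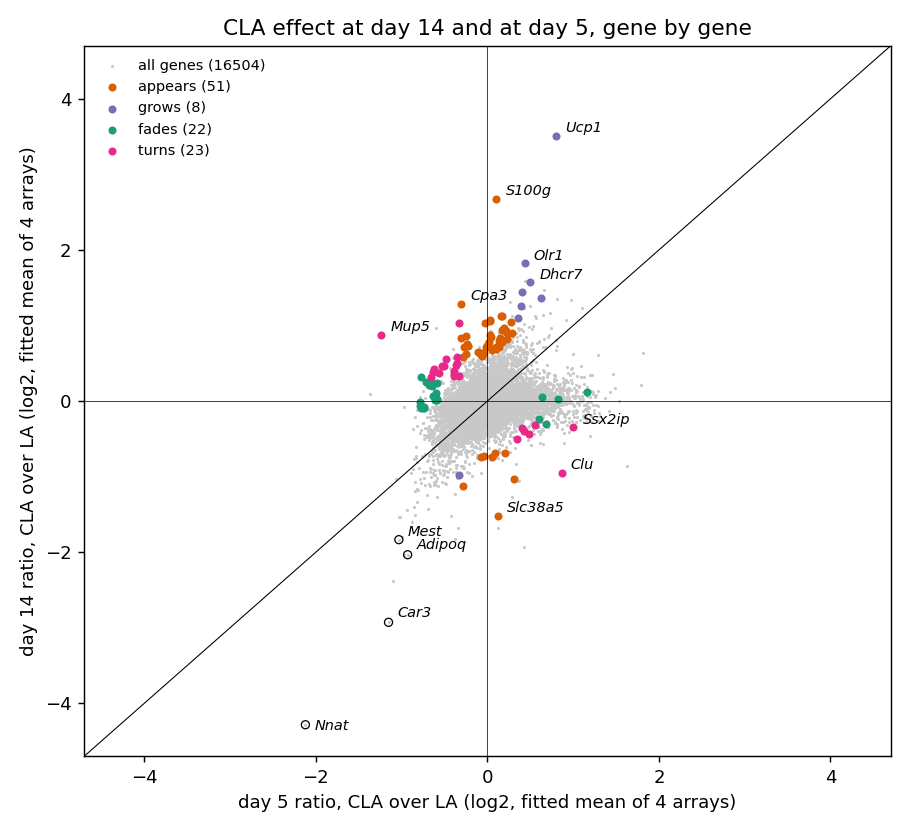
Fitted CLA over LA ratio of every gene at day 14 (vertical axis, log2) against day 5 (horizontal axis, log2), each the mean of 4 arrays. Grey points are the 16504 genes, colours are the classes of effect, open circles are 4 adipocyte genes, and the diagonal marks equal ratios: Ucp1 lies farthest above it and Nnat farthest below 0 on both axes.

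To sort effects into those that appear, grow, fade or turn, genes with an unadjusted p under 0.05 and a day difference of at least 1.5-fold were taken, 170 genes (1.03%). This is a description of fitted means with no test of its own. The lower limit for an effect on a day was 0.32 log2 units. An effect under that limit at day 5 and at least 1.5-fold at day 14 appeared in 51 genes, 43 upward and 8 downward. An effect of the same sign and past the lower limit on both days was larger at day 14 in 8 genes, and the effect faded in 22. In 23 genes it was past the lower limit with opposite signs, and 66 genes fell between these limits. The counts move with the arrays: leaving out 1 array at a time gave 36 to 98 genes that appear, 3 to 12 that grow, 10 to 300 that fade and 25 to 59 that turn.

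Among the effects that appear, S100g, a calcium-binding protein, had the largest difference. It stood at 1.26, 2.90, 2.20 and 4.36 on the day 14 arrays, against 0.81, 0.27, 0.00 and −0.66 on the day 5 arrays, a difference of 2.57 ± 0.65 (limma, unadjusted p = 0.0045). The days did not overlap, and day 14 array 4 was the highest by more than 1 log2 unit. Maoa, a monoamine-degrading enzyme of the mitochondrial surface, had the smallest p of all genes (0.81 ± 0.13, limma, unadjusted p = 0.00033). Its values were 1.32, 1.06, 0.66 and 0.35 on the day 14 arrays, against 0.50, 0.43, −0.50 and −0.28 on the day 5 arrays, so that the days overlapped by a little across dye orientations but not within them. Mgst2, a membrane glutathione transferase, was at 0.39 or above on all day 14 arrays, against −0.26 to 0.27 at day 5. Alg14, which takes part in protein glycosylation, stood between 0.31 and 1.04, against −0.70 to 0.26. In Bmper, a regulator of bone morphogenetic protein signalling, the ranges were 0.30 to 1.30 and −0.69 to 0.09, and in Layn, a hyaluronan receptor, 0.26 to 1.02 and −0.69 to 0.09. For these 4 genes all day 14 arrays lay above all day 5 arrays, as they did in 88 of all genes (0.533%), with the opposite in 50 (0.303%).

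Fewer effects appeared downward. Paip2b, an inhibitor of poly(A)-binding protein, stood at −0.73, −0.79, −0.79 and −0.67 on the day 14 arrays, against −0.14, −0.19, 0.56 and −0.03 on the day 5 arrays. The day 14 arrays were close to one another and did not overlap with day 5 (−0.80 ± 0.16; limma, unadjusted p = 0.0014). Slc38a5, an amino acid transporter, stood at −1.14, −0.51, −1.97 and −2.45, against 2.52, −0.52, −0.29 and −1.24, and its difference (−1.64 ± 0.61) was the largest downward one of this class. It rests in part on day 5 array 1, and without single arrays it ranged from −2.21 to −0.99. Outside this class, since its day 14 effect fell short of 1.5-fold, was Sort1, which encodes the sorting receptor sortilin of glucose transporter vesicles. It ranged from −0.91 to −0.15 at day 14, against −0.36 to 0.54 at day 5 (−0.75 ± 0.17), and the days overlapped.

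Besides Ucp1, 7 genes were in the class that grows. Olr1, a receptor for oxidised lipoprotein, stood at 2.48, 2.41, 1.49 and 0.91 on the day 14 arrays, against 1.29, 0.28, 0.15 and 0.01 on the day 5 arrays, a difference of 1.39 ± 0.25 (limma, unadjusted p = 0.00073). Only day 5 array 1 reached into the day 14 range. With arrays 3 and 4 turned the Olr1 difference was 0.27. Dhcr7, an enzyme of the last steps of cholesterol synthesis, stood at 1.29, 1.85, 2.10 and 1.04, against 1.45, 0.25, 0.33 and −0.03 (1.07 ± 0.35). Here too day 5 array 1 was as high as day 14. Pla2g2e, a secreted phospholipase, differed by 1.05 ± 0.29, Chac1, a glutathione-degrading enzyme of the stress response, by 0.87 ± 0.30, and the kinase Plk3 by 0.75 ± 0.26. Hsd17b12, a reductase that takes part in lengthening fatty acids, was also in this class, and Wscd2 was its 1 downward gene.

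**Figure D2:**
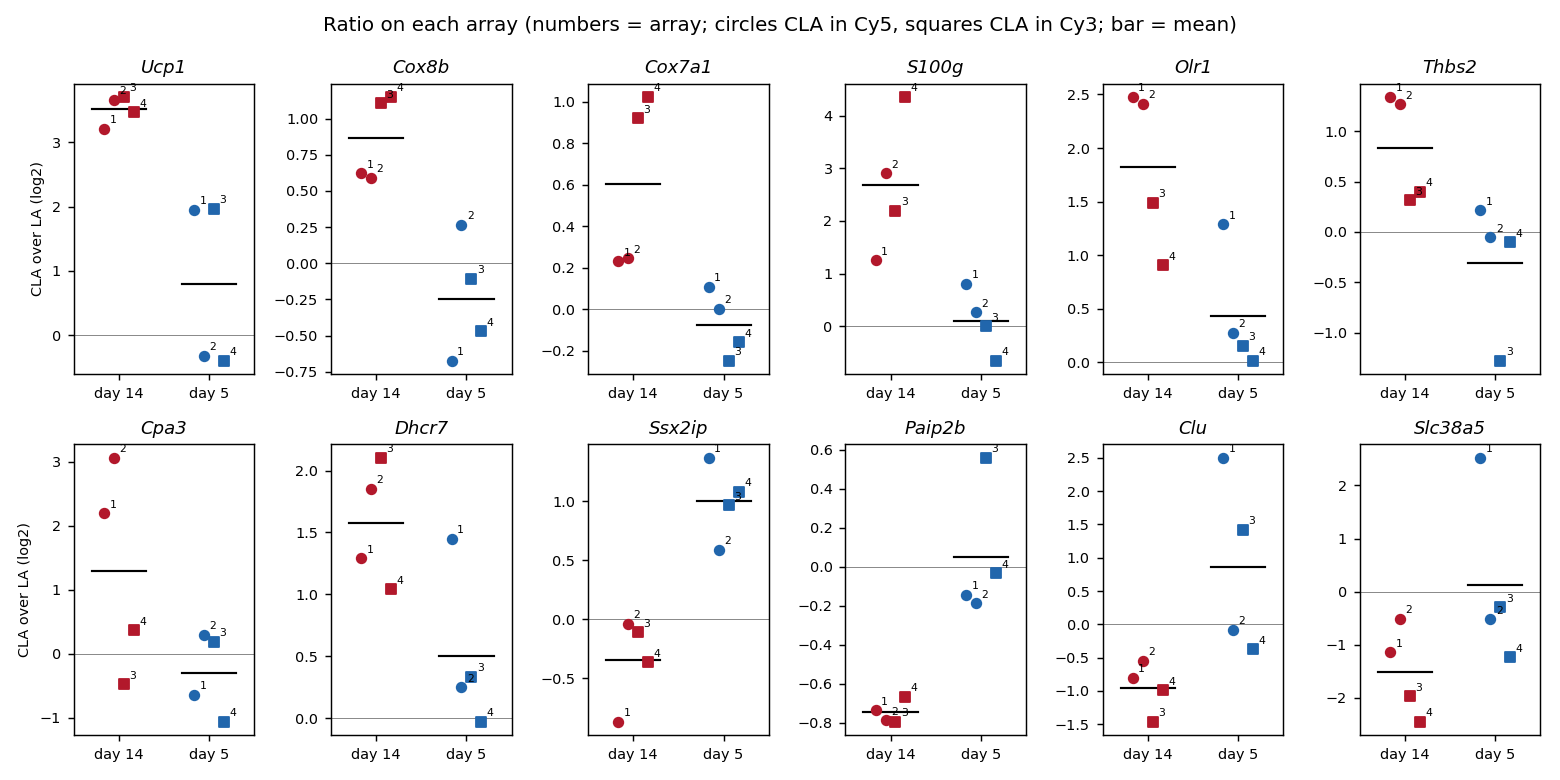
CLA over LA ratio (log2, vertical axis of each panel) of 12 genes on each array, day 14 left (red) and day 5 right (blue), with the number of the array, circles where CLA carried Cy5, squares where it carried Cy3, and a bar at the mean of the 4 arrays. Ucp1 splits at day 5 into arrays 1 and 3 near 2 and arrays 2 and 4 just below 0, while Ssx2ip lies above 0 on all day 5 arrays and below 0 on all day 14 arrays.

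Effects that turn had opposite signs on the 2 days. Ssx2ip, a protein of cell junctions and centrosomes, stood at −0.87, −0.04, −0.11 and −0.37 on the day 14 arrays, against 1.37, 0.59, 0.97 and 1.08 on the day 5 arrays (−1.35 ± 0.24; limma, unadjusted p = 0.00053). All day 14 values were below 0 and all day 5 values above it, a pattern held by 28 genes (0.17%), 20 of them above 0 at day 14. Ankhd1, an ankyrin repeat protein, was the other way round, with 0.80, 0.92, 0.15 and 0.36 at day 14, against −0.36, −0.68, −0.14 and −0.75 at day 5 (1.04 ± 0.20). With each array left out, Ssx2ip ranged from −1.50 to −1.17 and Ankhd1 from 0.91 to 1.23. With arrays 3 and 4 turned, little was left of either difference (−0.086 for Ssx2ip and 0.34 for Ankhd1). Clu, the extracellular chaperone clusterin, which the epididymis also makes in quantity, stood at −0.80, −0.55, −1.46 and −0.99, against 2.50, −0.08, 1.42 and −0.38 (−1.81 ± 0.59). Its high day 5 values were those of arrays 1 and 3, the arrays with epididymal or testicular markers. Mup5, a major urinary protein, whose relatives in the same family are nearly identical so that its probe may not tell them apart, stood at 2.02, 0.77, 0.02 and 0.68, against −1.46, −1.11, −2.61 and 0.23 (2.11 ± 0.62). Ccl3, a chemokine that draws macrophages, was also in this class (0.86 ± 0.26), with 1.34, 1.07, −0.25 and −0.13 at day 14, against 0.39, −0.09, −0.27 and −1.44 at day 5, and its days overlapped.

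Among the effects that fade, more were downward effects of day 5 that were near 0 at day 14 (17 of 22 differences were upward). Ethe1, a mitochondrial enzyme of sulfide disposal, stood at 0.26, 0.28, 0.78 and −0.06 on the day 14 arrays, against −0.25, −0.16, −1.18 and −1.49 on the day 5 arrays (1.08 ± 0.29), with no overlap. Fpr2, a formyl peptide receptor of phagocytes, stood at 0.61, 0.24, 0.03 and 0.13, against −0.73, 0.33, −1.35 and −0.88 (0.91 ± 0.26), and day 5 array 2 lay within the day 14 range. Cst12, a cystatin of the epididymis, was the 1 listed epididymal or testicular marker with an unadjusted p under 0.05. It stood at 0.00, −0.11, 0.31 and 0.26, against 2.04, 0.00, 1.37 and 1.24 (−1.05 ± 0.38).

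Of 37 listed matrix and fibroblast genes, 32 were measured, and 10 had an unadjusted p under 0.05 upward (31.2%, against 2.81% of all genes) and 0 downward. The list median difference was 0.31, against 0.00 over all genes, and 26 members lay above 0 and 6 below, whereas 50.1% of all genes lay above. The median fitted ratio of the list was 0.09 at day 14, with 18 members above 0 and 14 below. At day 5 it was −0.19, with 7 members above 0 and 25 below. The list median was 0.48, 0.31, 0.22 and −0.34 on the day 14 arrays, against −0.02, −0.28, −0.73 and 0.24 on the day 5 arrays. The days overlapped, and day 14 array 4 was lower than all day 5 arrays but array 3. Day 5 array 3, which carried testicular markers, was the lowest. Thbs2, a matrix glycoprotein, stood at 1.34, 1.27, 0.31 and 0.40 on the day 14 arrays, against 0.22, −0.05, −1.28 and −0.10 on the day 5 arrays (1.13 ± 0.24), with no overlap. The crosslinking enzyme Lox differed by 0.67 ± 0.17 and the proteoglycan lumican, Lum, by 1.00 ± 0.27. The chains of type I collagen, Col1a1 (0.73 ± 0.31) and Col1a2 (0.67 ± 0.27), and periostin, Postn (0.61 ± 0.24), were also among the 10. Dcn and Pdgfrb, the proteoglycan decorin and a receptor of pericytes, were in the class that fades: Pdgfrb stood at 0.30, −0.15, −0.08 and −0.42, against −0.84, −0.56, −1.22 and −0.32. Of 20 measured metalloproteinases and their inhibitors, 4 were higher (20%, against 2.81% of all genes) and 0 lower. They were Mmp14 (0.70 ± 0.15), Adam12 (0.66 ± 0.19), Mmp2 (0.56 ± 0.21) and Timp2 (0.43 ± 0.18). Without single arrays the matrix count ranged from 4 to 15, and with arrays 3 and 4 turned it was 0, with a list median of 0.19.

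Of 40 listed macrophage markers, 36 were measured, 32 had a higher ratio at day 14, and the list median difference was 0.46, where 7 members had an unadjusted p under 0.05 upward (19.4%) and 0 downward. The list median on the day 14 arrays was 1.18, 0.49, 0.61 and −0.08, against 0.54, 0.08, −0.18 and 0.12 on the day 5 arrays. The days overlapped, and day 14 array 4 was lower than all day 5 arrays but array 3. Adgre1, the macrophage surface protein of mouse tissues, stood at 1.87, 1.02, 0.68 and −0.22, against 0.99, 0.25, −0.35 and −0.29 (0.69 ± 0.28). The lysosomal protease Ctsk was steadier, with 0.49, 0.46, 0.53 and 0.57, against −0.01, 0.10, −0.31 and 0.21 (0.51 ± 0.14), and its days did not overlap. The complement genes C1qb (0.51 ± 0.16) and C1qc (0.60 ± 0.18), the Fc receptor Fcgr1 (0.67 ± 0.25), the membrane protein Ms4a7 (0.74 ± 0.28) and the lectin Clec4d (1.04 ± 0.44) made up the 7. Lysosomal genes, several of which macrophages express strongly, had a median difference of 0.28, with 27 of 31 above 0. At an unadjusted p under 0.05, 3 were higher (9.68%, against 2.81% of all genes), Ctsk again among them. Leaving out 1 array moved the macrophage count from 3 to 11 and its median from 0.25 to 0.57. With arrays 3 and 4 turned the median was 0.07 and the count 0.

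Mast cell genes and chemokines also had members with higher ratios at day 14. Cma1, a chymase of mast cells, stood at 0.21, 0.54, 0.20 and 0.45 on the day 14 arrays, against −0.46, −0.11, −0.09 and −0.20 on the day 5 arrays (0.57 ± 0.14), with the days on opposite sides of 0. Cpa3, a carboxypeptidase of mast cells, stood at 2.20, 3.06, −0.48 and 0.37, against −0.64, 0.30, 0.19 and −1.06. Its difference of 1.59 ± 0.58 was carried by arrays 1 and 2 (2.80), and was 0.38 within arrays 3 and 4. The tryptases Tpsab1 (0.42 ± 0.16) and Tpsb2 (0.39 ± 0.15) made 4 of 18 measured neutrophil and mast cell genes upward (22.2%, against 2.81% of all genes), all 4 of them mast cell genes, with 0 downward and a list median of 0.13. The other listed mast cell genes, Mcpt4, Kit, Fcer1a, Ms4a2 and Hdc, did not reach an unadjusted p under 0.05. In the whole list 13 differences lay above 0 and 5 below. Without single arrays 2 to 4 members were upward and 0 to 2 downward. Tpsab1 differed by 0.15 within arrays 1 and 2 and by 0.69 within arrays 3 and 4. Prss34, a serine protease of mast cells and basophils outside the list, went the other way (−1.34 ± 0.48, limma, unadjusted p = 0.025). Its day 5 values were −1.015, −0.17, 1.92 and 0.50, the highest on array 3, which carried testicular markers. The Prss34 difference was −0.35 within arrays 1 and 2 and −2.33 within arrays 3 and 4. Of 37 measured chemokine, cytokine and acute phase genes, 6 were upward (16.2%) and 0 downward, with a list median of 0.14. They were Ptgs2, the inducible cyclooxygenase (0.87 ± 0.18), Tnfrsf12a, the receptor of the cytokine TWEAK (0.63 ± 0.14), Ccl3, Cxcl14 (0.66 ± 0.20), Ccl8 (1.06 ± 0.35) and Il33 (0.59 ± 0.25). Tnf had a day difference of 0.08 ± 0.18 and the monocyte chemokine Ccl2 one of −0.64 ± 0.46.

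**Figure D3:**
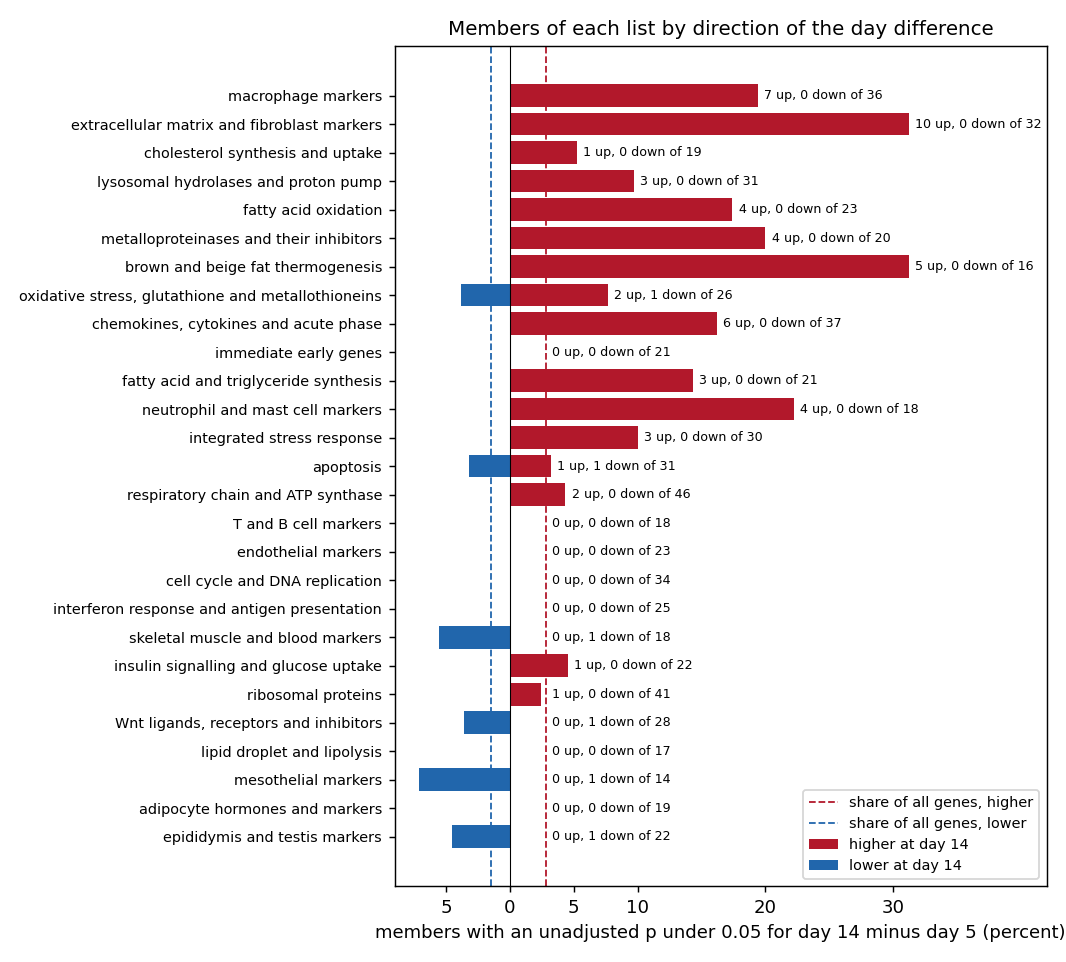
Share of each gene list with an unadjusted p under 0.05 for day 14 minus day 5 (percent of measured members), higher at day 14 to the right and lower to the left, with counts beside the bars; dashed lines mark the shares of all genes, 2.81% and 1.44%. Matrix and thermogenic genes reach 31.2% upward, while adipocyte, endothelial, lymphocyte, interferon and cell cycle lists have 0 in either direction.

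Genes of fat burning and of lipid synthesis both leaned upward. Of 23 measured genes of fatty acid oxidation, 4 were higher at an unadjusted p under 0.05 (17.4%, against 2.81% of all genes) and 0 lower. The median difference was 0.23, and 20 lay above 0, as did 50.1% of all genes. The list median was 0.49, 0.225, −0.06 and 0.24 on the day 14 arrays, against −0.105, 0.02, −0.42 and 0.16 on the day 5 arrays. The days overlapped, and without single arrays the count upward ranged from 2 to 9. Etfdh, which passes electrons from fatty acid oxidation to the respiratory chain, stood at 0.64, 0.44, 0.07 and 0.20 on the day 14 arrays, against −0.14, 0.02, −0.74 and −0.28 on the day 5 arrays (0.62 ± 0.14), with no overlap. The thiolase Acaa2 (0.59 ± 0.15) and the peroxisomal enzyme Ehhadh (0.65 ± 0.23) were the others, beside Ppargc1a, which was also counted among the thermogenic genes. In fatty acid and triglyceride synthesis 3 of 21 were higher (14.3%) and 0 lower. They were Elovl3, also counted among the thermogenic genes, Acacb, an acetyl-CoA carboxylase (0.71 ± 0.30), and Acss2, an acetyl-CoA synthetase (0.51 ± 0.22). The synthesis list median lay between 0.13 and 0.25 on the day 14 arrays, against −0.21 to 0.43 on the day 5 arrays. Its highest value was that of day 5 array 4. Without single arrays the synthesis count upward ranged from 1 to 7. Fasn, the fatty acid synthase, had a day difference of 0.42 ± 0.33 and the desaturase Scd1 one of 0.08 ± 0.24. Cholesterol genes had a median difference of 0.29, with 15 of 19 above 0, yet Dhcr7 alone had an unadjusted p under 0.05. Insig1, a sterol-regulated brake on the pathway, had a day difference of 0.76 ± 0.36. Pdk4, which restrains pyruvate dehydrogenase, stood at 2.76, 1.80, 0.28 and 1.05, against 1.31, 0.32, 0.23 and 0.77 (0.81 ± 0.40; limma, unadjusted p = 0.075).

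Several adipocyte genes had low CLA over LA ratios on all day 14 arrays, but their day 5 arrays split so widely that the day difference could not be resolved. Nnat, the imprinted gene neuronatin, stood at −3.05, −4.17, −5.62 and −4.28 on the day 14 arrays, against −4.28, −0.22, −4.29 and 0.30 on the day 5 arrays. Day 5 arrays 1 and 3 were as low as day 14, and arrays 2 and 4 lay near 0. The difference was −2.16 ± 1.19 (limma, unadjusted p = 0.11). Car3, an abundant carbonic anhydrase of adipocytes, stood at −2.15, −2.49, −4.23 and −2.84, against −2.95, 0.65, −3.39 and 1.08 (−1.78 ± 1.10). Adipoq, which encodes adiponectin, stood at −0.82, −1.80, −3.54 and −1.97, against −2.29, 0.42, −2.55 and 0.70 (−1.10 ± 0.88). Mest, another imprinted gene of adipocytes, followed the same split, with day 5 arrays 1 and 3 at −1.91 or below and arrays 2 and 4 at 0.00 and 0.78. Leptin, Lep, did not split in this way, and its fitted ratio stood near 0 on both days (0.004 at day 14 and −0.026 at day 5). Its day difference was 0.03 ± 0.14. Pparg, the master regulator of adipocytes, did split at day 5 (−0.78, 0.35, −1.65 and 0.42). It stood at 0.11, −0.33, −1.10 and −1.03 on the day 14 arrays, and its day difference was −0.17 ± 0.46.

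**Figure D4:**
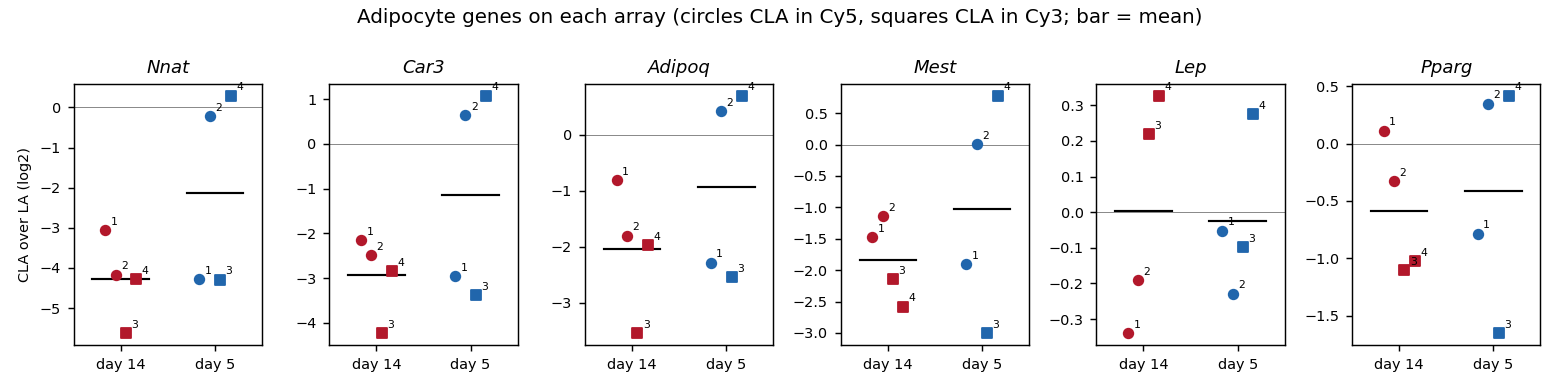
CLA over LA ratio (log2, vertical axis of each panel) of 6 adipocyte genes on each array, day 14 left (red) and day 5 right (blue), with the number of the array, circles where CLA carried Cy5, squares where it carried Cy3, and a bar at the mean. In Nnat, Car3, Adipoq and Mest the day 5 arrays 1 and 3 lie with the day 14 arrays, and arrays 2 and 4 lie near or above 0.

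Of 20 adipocyte hormones and markers, 19 were measured, 0 had an unadjusted p under 0.05 in either direction, and the list median difference was −0.27. The list median on the day 14 arrays was −0.82, −0.86, −1.10 and −0.66, against −1.33, 0.00, −1.66 and 1.08 on the day 5 arrays. The day 5 arrays with low adipocyte ratios, 1 and 3, were those with high Ucp1 and with epididymal or testicular markers. Without them, 14 of the 19 had an unadjusted p under 0.05 downward and the list median was −1.10, a setting that leaves out the arrays most like day 14 in these genes and so widens the difference by its making. In that setting 9.31% of all genes had an unadjusted p under 0.05, 753 higher and 784 lower. The thermogenic list then had 4 members upward and 2 downward, the matrix list 7 and 1, and the macrophage list 8 and 1.

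**Figure D5:**
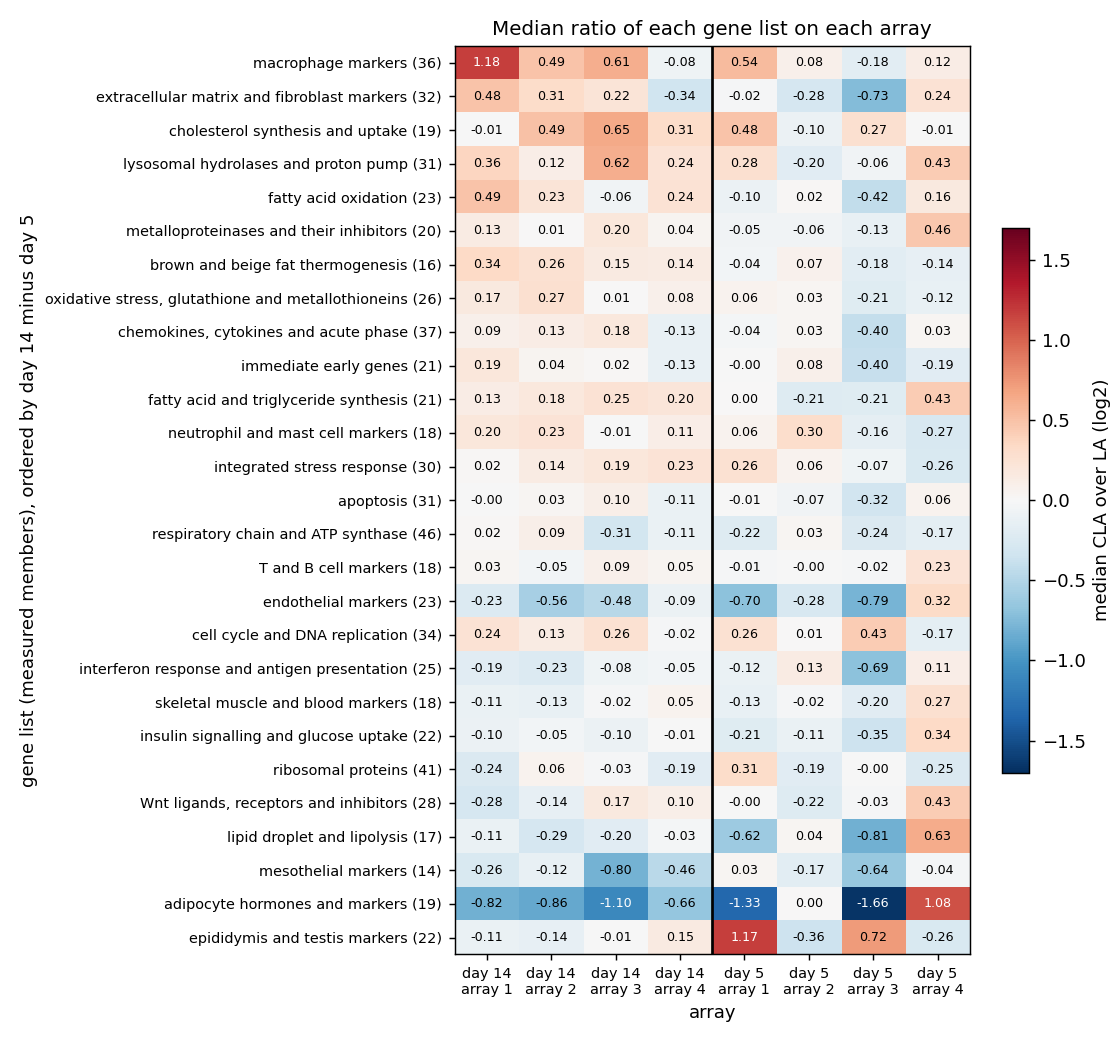
Median CLA over LA ratio (log2, colour and printed value) of each gene list on each array, day 14 arrays left of the black line and day 5 arrays right of it, with lists ordered by day 14 minus day 5 and measured members in brackets. Adipocyte markers are below 0 on all day 14 arrays and on day 5 arrays 1 and 3, while epididymis and testis markers are high on day 5 arrays 1 and 3.

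The remaining lists held few differences, to be read beside the shares over all genes, 2.81% higher and 1.44% lower. Of 23 endothelial markers 0 had an unadjusted p under 0.05, with a median difference of 0.02, and their ratios lay mostly below 0 on both days (20 of 23 at day 14 and 21 of 23 at day 5). Mesothelial markers, of the lining of the pad, had 1 of 14 lower, the uroplakin Upk1b (−0.84 ± 0.31), and a median of −0.14. The list of Wnt genes had 1 of 28 lower, the secreted inhibitor Dkk2 (−0.64 ± 0.18), and that of skeletal muscle and blood markers had 1 of 18 lower, the myosin Myh2 (−0.31 ± 0.12). In the integrated stress response 3 of 30 were higher, Chac1 and the transcription factors Cebpb (0.49 ± 0.15) and Cebpg (0.24 ± 0.10). Of 26 genes of oxidative stress, the thioredoxin Txn1 (0.56 ± 0.13) and its reductase Txnrd1 (0.47 ± 0.18) were higher, and the glutathione transferase Gstm3 (−0.58 ± 0.20) was lower. Of 31 apoptosis genes 1 was higher, the caspase inhibitor Xiap (0.34 ± 0.13), and 1 lower, Bcl2l1, a survival factor (−0.34 ± 0.14). The respiratory chain had 2 of 46 higher (4.35%), Ndufa8 and Cox7b, and the insulin list 1 of 22 (4.55%), the kinase Akt1 (0.37 ± 0.13). Ribosomal proteins had a median of −0.07, with 34 of 41 below 0, and their 1 member at an unadjusted p under 0.05 (2.44%), Rpl23, went against the list (0.33 ± 0.12). Lists of T and B cells, interferon response, lipid droplets and lipolysis, cell cycle and immediate early genes had 0 members at an unadjusted p under 0.05 in either direction.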

How the data were processed

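The authors deposited 1 value per probe and array, taken here as a log10 ratio of the 2 channels; the unit is inferred from the values, and the sources used here do not give background treatment, filters, normalization or signal over background. Values were multiplied by 3.32 to give log2. Of 22393 probes, 18218 carried 1 gene symbol, 16 several and 4159 none. A gene was the mean of its probes (16504 genes, 1193 with more than 1 probe), and Entrez numbers of 18175 probes were found among the RefSeq genes of GRCm38.p6, where 0 symbols had changed. The model was fitted by lmFit and eBayes (limma 3.58.1, R 4.3.3) on all 8 arrays, with 1 mean per day, a dye term and p-values Benjamini-Hochberg adjusted over all genes or all probes. The script was tested on simulated data.

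Named genes were the 15 in each direction with the smallest p among differences of at least 1.5-fold, the 6 with the largest difference in each class, up to 3 members in each direction of each list with an unadjusted p under 0.05, and 14 fixed genes, of which Cd68 has no probe naming it alone. Ccl8, Cxcl14, Il33, Ccl2, Fcgr1, Ms4a7, Clec4d, Col1a1, Col1a2, Postn, Dcn, Pdgfrb, Timp2, Tpsb2, Ppargc1a, Cidea, Dio2, Prdm16, Hsd17b12, Wscd2 and the markers of epididymis and testis were named after their values were seen. The members and the 27 lists (688 of 745 entries measured) were chosen with earlier results of these data known, and lists were given counts and medians with no set test. Alternatives covered the dye term, array weights, pairing, turning, centring, moderation, probes, scale and left-out arrays. All value columns were used. The number of arrays limits the precision.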

Additional observations from a re-analysis of the deposited data

Results flagged for a closer look

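Among 91 named genes and 182 groups of 4 arrays examined, 1 array stood apart from its group by Dixon's test at the 95% level, fewer than chance gives at about 1 in 20. It was Prss34, a serine protease of mast cells and basophils, at −0.79 on day 14 array 1, where the other day 14 arrays lay between −1.12 and −1.09.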

How the results depend on the processing

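Limma called 0 genes and 0 probes under every planned setting, with a smallest adjusted p for genes of 0.292 (array weights). The exception was 1 setting, added after seeing the data: without day 5 arrays 1 and 3 it called 1 gene, Ucp1 (adjusted p 0.00216), and 1 probe (0.00695), with 1537 genes at an unadjusted p under 0.05 (753 higher and 784 lower). Those arrays have the highest epididymis and testis markers and also the high Ucp1 and low adipocyte values of day 5, so the setting selects arrays the way the outcome does. The other added setting, without day 5 arrays 3 and 4, gave 594 such genes. The count of 700 genes was 156 without the dye term, 1213 with a weight per array, 464 with array number as a replicate block and 416 with arrays 3 and 4 turned. Leaving out 1 array gave 414 to 1443 genes: 1443 without day 5 array 4, 414 without day 14 array 1 and 427 without day 14 array 4. Whether array numbers pair the days was examined across genes, which are not independent replicates. Deviations from the day means correlated between arrays of the same number with r of 0.394, 0.638, 0.364 and 0.501, but a number also fixes the dye orientation. With day means and the dye term both removed, r was −0.645, −0.474, −0.338 and 0.144. That fit forces the summed residuals of arrays 1 and 2 to be opposite between the days, and likewise for arrays 3 and 4. It thereby pushes r below 0, so these values cannot show whether the numbers pair arrays. The main fit took no pairing. The share higher at day 14 was 66.1%, but 29.3% with arrays 3 and 4 turned and 49% without day 5 arrays 1 and 3. Beyond the single arrays, classes ranged over settings from 2 to 183 genes that appear, 0 to 15 that grow, 0 to 89 that fade and 0 to 188 that turn, with the low counts from values taken as log2. The cause of these changes was not tested.

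Of the 91 named genes, 87 had a difference of the same sign in both dye orientations, as had all 700 genes at an unadjusted p under 0.05. Turning arrays 3 and 4 shrinks such differences by construction, so the small values below follow in part from how the genes were chosen. With arrays 3 and 4 turned, 61 of 91 named genes changed sign and none was called (smallest adjusted p 0.999). Their day 14 minus day 5 differences (log2) below 0 were then Maoa −0.086, Alg14 −0.21, H2ac8 −0.19, Mgst2 −0.014, Layn −0.075, Cox8b −0.30, Mmp14 −0.17, Nmur2 −0.23, S100g −1.03, Ucp1 −0.092, Dhcr7 −0.35, Pla2g2e −0.48, Chac1 −0.36, Plk3 −0.58, Ethe1 −0.61, Fpr2 −0.28, Cwh43 −0.085, Elovl3 −0.30, Acacb −0.035, Etfdh −0.0204, Acaa2 −0.13, Ehhadh −0.13, Cox7a1 −0.50, Cox7b −0.022, Ctsk −0.085, C1qb −0.19, Tnfrsf12a −0.20, Tpsab1 −0.27, Xiap −0.24, Cebpb −0.19, Cebpg −0.065, Txn1 −0.071, Txnrd1 −0.16, Akt1 −0.16, Ctsa −0.12, Lamp2 −0.19, Rpl23 −0.18, Lep −0.15, Fasn −0.0064, Scd1 −0.17 and Tnf −0.22. Those above 0 were Paip2b 0.20, Sort1 0.029, Cldn34c4 0.47, Aldh1a2 0.45, Krtap14 0.58, Olfr1189 0.15, H1f10 0.18, Supt3 0.10, Ankrd53 0.33, Prss34 0.99, Nr6a1 0.49, Upk1b 0.043, Bcl2l1 0.17, Gstm3 0.19, Myh2 0.13, Nnat 0.79, Adipoq 0.73, Car3 0.61, Mest 0.45 and Pparg 0.28. Signs of small differences also changed elsewhere. Lep was −0.024 with a weight per array, −0.13 without day 5 arrays 3 and 4 and −0.019 without day 5 arrays 1 and 3. Tnf was −0.041 with a weight per array and −0.14 without day 5 arrays 3 and 4. Without those 2 arrays Pparg was 0.11 and Scd1 −0.087, and Fasn was −0.14 without day 5 arrays 1 and 3. Leaving out 1 array gave −0.076 to 0.1 for Lep, −1.47 to 0.044 for Mest, −0.53 to 0.30 for Pparg, −0.11 to 0.22 for Scd1 and −0.029 to 0.25 for Tnf.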
